A study of Homo sapiens with 7 samples.

Results

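SR splicing proteins bind exons through an RNA recognition motif and recruit the spliceosome through a tail in which arginine and serine alternate, the RS domain. SRRM1 and SRRM2 carry long RS domains but are classed as SR-related, and SRRM2 is a large scaffold of nuclear speckles, the bodies in which splicing factors collect. Many SR genes hold an exon with an early stop codon, so that their own product can lower their mRNA through nonsense-mediated decay. The 10 genes described here are SRRM1, SRRM2, SRSF1, SRSF2, SRSF3, SRSF4, SRSF5, SRSF6, SRSF7 and SRSF11. They were taken by name from a table of 23710 genes, but the set was selected on their normalized counts in the same 4 libraries, so everything below is a description and nothing is tested. All 10 passed the filter on low values that left 12578 genes, called the tested genes.

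The cells were SNU398, an established human hepatocellular carcinoma line, and each RNA library came from cells given 30 µM of a peptide for 8 hours. As the study is known, PEN-FFW carries an engineered variant of the segment with which the zinc finger factor SALL4 contacts RBBP4, which belongs to the chromatin complex NuRD. PEN-WT carries the native segment, PEN-MUT a mutated one as a control, and PEN is the carrier penetratin alone, which the other peptides also contain. The comparisons ask how the SALL4-derived peptides change transcripts relative to the control peptides. Each peptide had 1 library and no untreated cells are among the samples, so there is no replicate error and no difference has a test or a p-value. In RNA from whole cultures, fewer cells with a transcript and less of it per cell cannot be told apart. The series has 7 samples, and its 3 chromatin samples are not analysed here.

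Reads in genes above the floor of the table, its lowest value of 5 normalized counts, numbered 27347377 for PEN-FFW, 40717633 for PEN-WT, 32043544 for PEN-MUT and 37784093 for PEN. Levels below are normalized counts, the reads of a gene multiplied by the authors' factor for the library. Differences are log2(normalized count + 10) of 1 library minus another, set against the middle tested gene of that pair (the median tested gene), and ± is a standard error that covers the counting of reads only. As deposited, the median tested gene of PEN-FFW lay at -0.27 from PEN, -0.30 from PEN-MUT and -0.30 from PEN-WT, while the other pairs were within 0.03. Among markers of the labelled cell type, GPC3 (998 to 1281 normalized counts) and SALL4 (1168 to 1665) were present. ALB lay between 83.1 and 157, AFP (7.76 to 11) and APOA1 (8.31 to 18) were near the floor, and HNF4A, TTR, APOB, KRT8 and KRT18 were listed at the floor in all 4 libraries. VIM, listed for the line itself, had 60313 to 86516. Of the 6 markers of other cell types, the endothelial genes PECAM1 and CDH5 were at the floor in all 4 libraries. The leukocyte genes PTPRC (298 to 373) and CD68 (224 to 283) and the collagen genes COL1A1 (127 to 221) and COL3A1 (72895 to 79779) were above it.

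The RS domain can be read in the coding sequence. Codons for serine or arginine make up 40.3% of the SRRM2 reading frame, which has 642 serine and 468 arginine codons among 2752 codons with the stop. The share is 44.5% in SRSF7, with 48 and 58 among 238, and lies between 26.9% (SRSF11) and 45.7% (SRSF2) over the 10 genes. The stretch of 40 codons with the most adjacent serine and arginine pairs is printed for SRRM2 and SRSF7, the genes farthest above and below the median tested gene with PEN-FFW against PEN, with arginine codons in capitals. The SRRM2 stretch lies in exon 11 of 15 at chr16:2812426-2812545, plus strand. That of SRSF7 runs over exons 3 to 5 of 8 within chr2:38975266-38976681, minus strand, with introns left out. Both come from GENCODE 44 transcripts on GRCh37 and are written 5′ to 3′.
SRRM2 coding: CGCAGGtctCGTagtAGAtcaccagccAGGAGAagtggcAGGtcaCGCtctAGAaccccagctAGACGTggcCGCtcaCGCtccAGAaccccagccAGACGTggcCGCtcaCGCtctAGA
SRSF7 coding: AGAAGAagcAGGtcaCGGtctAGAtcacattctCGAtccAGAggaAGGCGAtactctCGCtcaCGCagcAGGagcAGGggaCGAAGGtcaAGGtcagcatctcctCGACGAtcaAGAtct
The SRRM2 stretch has 19 arginine codons, 18 adjacent pairs and a GC content of 62.5%, and the SRSF7 stretch 19, 23 and 54.2%. Gene counts do not tell isoforms apart, so neither the use of exons nor the stop-containing isoforms were measured.

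SRRM2 had 14525 normalized counts with PEN-FFW, 7508 with PEN-WT, 4822 with PEN-MUT and 5600 with PEN. PEN-FFW was thus highest, PEN-WT second, and the libraries of both control peptides lowest, with PEN-MUT under PEN. The difference of PEN-FFW was 1.64 ± 0.02 from PEN (3.12-fold) and 1.89 ± 0.02 from PEN-MUT (3.70-fold). As deposited, the ratio of PEN-FFW to PEN was 2.59. The gene (ENSG00000167978) spans chr16:2802627-2822539 on the plus strand of GRCh37. Among the 12578 tested genes only 32 lay higher with PEN-FFW against PEN, and 24 against PEN-MUT. Of the 595 tested genes at least as abundant as SRRM2 on average (itself included), 1 lay higher with PEN-FFW against PEN, ANKRD30BL, an ankyrin repeat gene, named after its values were seen. The median of those abundant genes was -0.17.

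With PEN-WT the SRRM2 difference was smaller, at 0.39 ± 0.02 from PEN and 0.64 ± 0.03 from PEN-MUT. PEN-MUT against PEN was -0.24 ± 0.03. At the same dose and time, SRRM2 was 2.38-fold higher with PEN-FFW than with PEN-WT, with a 95% counting interval of 1.22 to 1.29 on the log2 scale. These comparisons share libraries (PEN, PEN-MUT or PEN-WT), so they are not independent of each other.

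**Figure D1:**
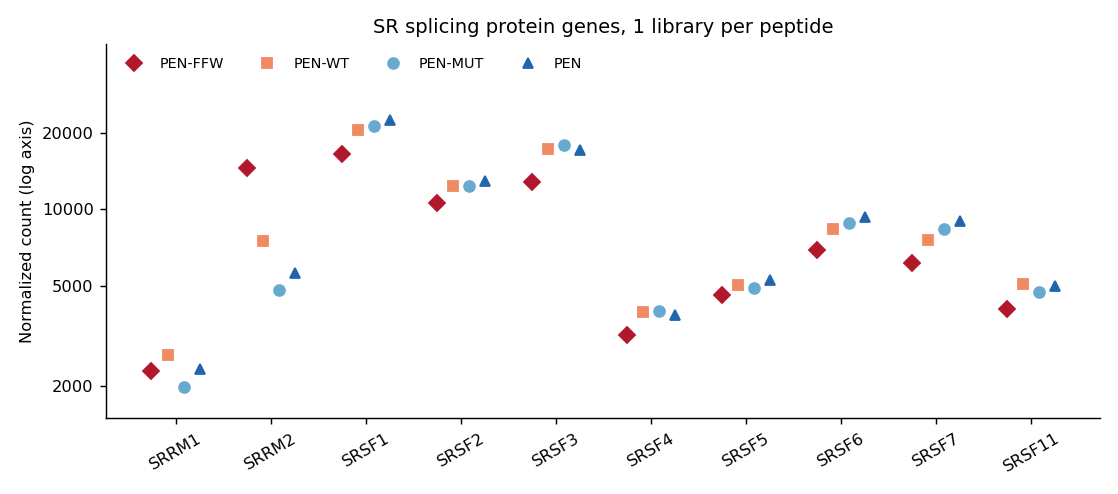
Normalized counts (log axis) of the 10 genes in the 4 libraries, 1 symbol per library, with PEN-FFW as diamonds, PEN-WT as squares, PEN-MUT as circles and PEN as triangles. SRRM2 has 14525 normalized counts with PEN-FFW against 5600 with PEN, while the SRSF genes lie a little lower with PEN-FFW on this scale, on which the median tested gene is lower too.

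SRRM1 is a splicing coactivator that bridges SR proteins and the spliceosome. It had 2303 normalized counts with PEN-FFW, 2670 with PEN-WT, 1981 with PEN-MUT and 2339 with PEN. The value of PEN-MUT was the lowest and that of PEN-WT the highest as deposited. Relative to the median tested gene, SRRM1 stood at 0.25 ± 0.04 with PEN-FFW and 0.16 ± 0.04 with PEN-WT against PEN, and PEN-MUT at -0.26 ± 0.04. The first of these turns to -0.02 as deposited. Against PEN-MUT the differences were 0.51 ± 0.04 for PEN-FFW and 0.43 ± 0.04 for PEN-WT. SRRM1 and SRRM2 thus had the same order of libraries relative to the median tested gene, PEN-FFW, PEN-WT, PEN and PEN-MUT from high to low, which no SRSF gene had. SRRM1 on the plus strand of chr1:24958207-24999772 shares no exon with another gene of the annotation.

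SRSF7 (chr2:38970741-38978636, minus strand), an SR protein with a zinc knuckle, was of the 10 genes the farthest below the median tested gene with PEN-FFW and with PEN-WT against PEN. It had 6132 normalized counts with PEN-FFW, 7549 with PEN-WT, 8363 with PEN-MUT and 8993 with PEN. The PEN library was the highest and PEN-FFW the lowest on that scale. Relative to the median tested gene the differences from PEN were -0.28 ± 0.02 with PEN-FFW, -0.28 ± 0.02 with PEN-WT and -0.13 ± 0.02 with PEN-MUT. Between PEN-FFW and PEN-WT no difference of SRSF7 was detectable at this depth, with a counting interval of -0.04 to 0.05. Against PEN, 1064 of the tested genes lay lower than SRSF7 with PEN-FFW, and 622 with PEN-WT.

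SRSF1 (chr17:56078280-56084707, minus strand), also known as ASF/SF2, had 16491 normalized counts with PEN-FFW, 20551 with PEN-WT, 21316 with PEN-MUT and 22616 with PEN. Its order of libraries was that of SRSF7, with PEN highest and PEN-FFW lowest. Against PEN it stood at -0.19 ± 0.01 with PEN-FFW, -0.17 ± 0.01 with PEN-WT and -0.11 ± 0.01 with PEN-MUT. SRSF6 (chr20:42086533-42094686, plus strand) had 6942 normalized counts with PEN-FFW, 8382 with PEN-WT, 8858 with PEN-MUT and 9352 with PEN, and stood at -0.16 ± 0.02, -0.19 ± 0.02 and -0.10 ± 0.02 from PEN in the first 3 of these libraries. Among genes of the same mean count, SRSF1 was at -0.02 and SRSF6 at 0.01 with PEN-FFW against PEN, so in that pair both lay close to equally abundant genes.

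SRSF3 (chr6:36562130-36573377, plus strand), with the shortest reading frame of the 10 genes at 164 codons with the stop, had 12786 normalized counts with PEN-FFW, 17339 with PEN-WT, 18006 with PEN-MUT and 17221 with PEN. PEN-FFW was the lowest library, and the other 3 lay close together. Relative to the median tested gene SRSF3 stood at -0.16 ± 0.02 with PEN-FFW, -0.02 ± 0.01 with PEN-WT and 0.04 ± 0.01 with PEN-MUT against PEN, and at -0.20 ± 0.02 with PEN-FFW against PEN-MUT. PEN-FFW was lower than PEN-WT by -0.14 (interval -0.17 to -0.11), the lowest value of the 10 genes for that pair. Relative to genes of the same mean count it was at 0.01 with PEN-FFW against PEN, on the other side of 0.

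SRSF5 (chr14:70193617-70238722, plus strand), a family member first found as a gene of regenerating liver in rat, had 4574 normalized counts with PEN-FFW, 5020 with PEN-WT, 4911 with PEN-MUT and 5262 with PEN. The PEN-FFW library was lowest as deposited but highest relative to the median tested gene, where it stood at 0.07 ± 0.03 from PEN, 0.20 ± 0.03 from PEN-MUT and 0.17 ± 0.03 from PEN-WT. Its counting interval for PEN-FFW against PEN-WT was 0.11 to 0.22, above 0. That for PEN-FFW against PEN as deposited was centred on -0.20.

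The remaining SRSF genes differed little between libraries once the median tested gene was subtracted. SRSF2 (chr17:74730197-74733415, minus strand), also known as SC35, had 10591 normalized counts with PEN-FFW, 12426 with PEN-WT, 12330 with PEN-MUT and 12992 with PEN, with differences from PEN of -0.02, -0.09 and -0.10 with PEN-FFW, PEN-WT and PEN-MUT. SRSF4 (chr1:29474255-29508412, minus strand) had 3182 with PEN-FFW, 3929 with PEN-WT, 3969 with PEN-MUT and 3812 with PEN, and its 3 differences lay between 0.01 and 0.04. SRSF11 (chr1:70671365-70718735, plus strand) had 4037 with PEN-FFW, 5082 with PEN-WT, 4725 with PEN-MUT and 4967 with PEN, with -0.03, 0.00 and -0.09 in the same order. Of levels relative to the median of each library, the range over the 4 libraries was 0.06 on the log2 scale for SRSF4, 0.09 for SRSF11 and 0.10 for SRSF2, against 0.25 for the median tested gene, 0.48 for SRRM1 and 1.85 for SRRM2. With PEN-FFW against PEN the side of 0 on which SRSF2, SRSF4 and SRSF11 lay differed between scalings. For SRSF4 the counting intervals of all 3 differences from PEN include 0, so none was detectable at this depth.

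**Figure D2:**
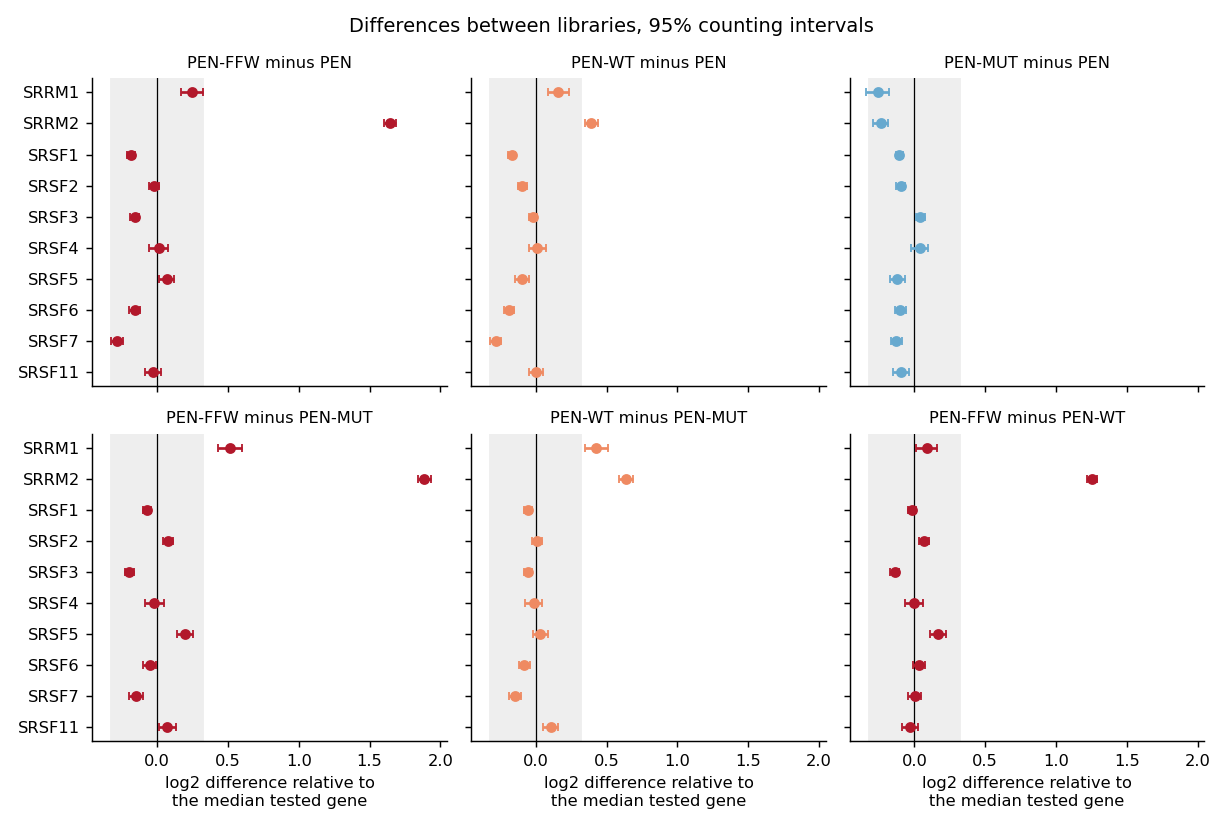
Log2 difference between libraries, relative to the median tested gene (x axis), of the 10 genes in the 6 pairs of libraries, with 95% counting intervals and a grey band that marks less than 0.32 either way. SRRM2 lies at 1.64 with PEN-FFW minus PEN and 1.89 with PEN-FFW minus PEN-MUT, and all 8 SRSF genes lie inside the band in every panel.

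A difference of at least 0.32 on the log2 scale, a fold of 5 to 4, was taken as apart. By that rule 1 of the 10 genes, SRRM2, was higher with PEN-FFW than with PEN, where 17% of all tested genes were, and 0 were lower, where 5.67% were. With PEN-WT against PEN the counts were again 1 higher (5.93% of tested genes) and 0 lower (3.53%), and with PEN-MUT against PEN 0 higher (2.26%) and 0 lower (3.14%). Against PEN-MUT, 2 genes, SRRM1 and SRRM2, were higher with PEN-FFW (16.5% of tested genes) and the same 2 with PEN-WT (5.57%), with 0 lower in either (2.49% and 0.596%). Between PEN-FFW and PEN-WT 1 gene was higher with PEN-FFW, SRRM2 (11.2%), and 0 lower (1.29%). As deposited, without subtracting the median tested gene, 1 was higher (7.08% of tested genes) and 4 were lower (41.3%) with PEN-FFW against PEN, the 4 being SRSF1, SRSF3, SRSF6 and SRSF7. On that scale 1 was higher (6.57%) and 4 lower (45.6%) against PEN-MUT, and 1 higher (3.72%) and 2 lower (44.8%) against PEN-WT. At 1.5-fold or more, SRRM2 was the 1 gene higher with PEN-FFW against PEN (7.24% of tested genes), against PEN-MUT (7.24%) and against PEN-WT (4.17%) and with PEN-WT against PEN-MUT (0.898%). None of the 10 was higher by 1.5-fold with PEN-WT (0.827%) or PEN-MUT (0.215%) against PEN. The count of genes lower by 1.5-fold was 0 in all 6 pairs, where 0.437% of tested genes were lower with PEN-FFW against PEN, 0.374% with PEN-WT and 0.35% with PEN-MUT. Against PEN-MUT 0.0875% were lower with PEN-FFW and 0.0159% with PEN-WT, and 0.0318% with PEN-FFW against PEN-WT. The members were picked with these values known, so nothing is read from their counts. The median of the 10 genes was -0.03 with PEN-FFW, -0.06 with PEN-WT and -0.10 with PEN-MUT against PEN, and 0.03 with PEN-FFW and 0.00 with PEN-WT against PEN-MUT, beside 0 for all tested genes by construction. For the 8 SRSF genes alone the medians against PEN were -0.09, -0.10 and -0.10 with PEN-FFW, PEN-WT and PEN-MUT.

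The make-up of the family's reads does not depend on any scaling between libraries. SRRM2 took 17.8% of the reads of the 10 genes with PEN-FFW (95% Wilson interval 17.6% to 18.1%), 8.30% with PEN-WT (8.14% to 8.46%), 5.40% with PEN-MUT (5.25% to 5.55%) and 6.01% with PEN (5.87% to 6.15%). SRSF1 took 20.2% with PEN-FFW, 22.7% with PEN-WT, 23.9% with PEN-MUT and 24.3% with PEN. SRSF3 took 15.7%, 19.2%, 20.2% and 18.5% in the same order, and SRSF7 took 7.52%, 8.35%, 9.37% and 9.65%. The shares add up to a fixed total, so a larger SRRM2 share lowers those of the other genes. The lower shares of SRSF1, SRSF3 and SRSF7 with PEN-FFW are therefore not by themselves lower levels of these genes. For each read of SRSF7 there were 2.37 reads of SRRM2 with PEN-FFW, 0.995 with PEN-WT, 0.577 with PEN-MUT and 0.623 with PEN. All 10 genes together held 0.323% of all reads with PEN-FFW, 0.286% with PEN-WT, 0.279% with PEN-MUT and 0.294% with PEN. Without SRRM2 the other 9 held 0.266%, 0.262%, 0.264% and 0.276%, so the higher share of the family with PEN-FFW was that of SRRM2. Wilson intervals cover counting error only, since sequenced reads are not independent molecules.

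**Figure D3:**
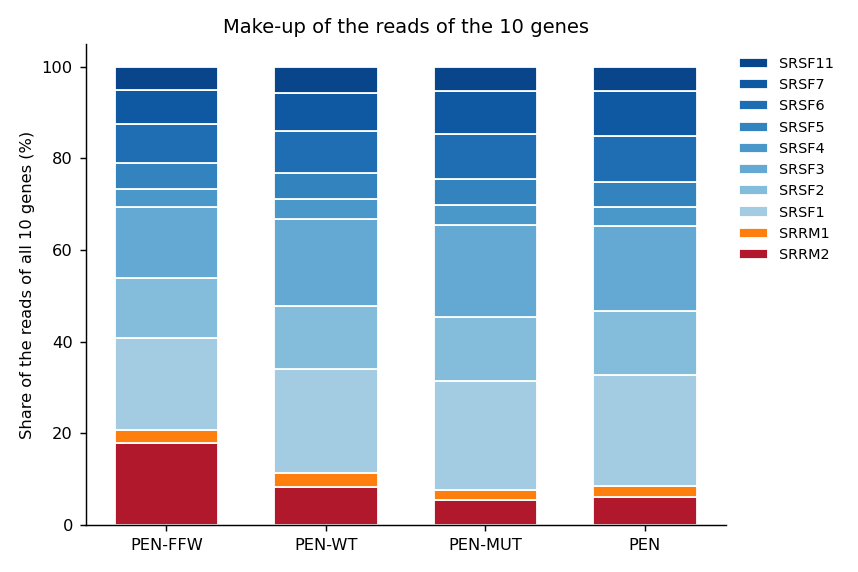
Share of the reads of the 10 genes (%) that each gene took, in stacked bars for the 4 libraries. The SRRM2 block at the foot takes 17.8% with PEN-FFW, 8.30% with PEN-WT, 5.40% with PEN-MUT and 6.01% with PEN.

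Levels of different genes were compared per length. In RPKM, computed here from reads over the canonical transcript, SRSF2 was first in each library, with 222 with PEN-FFW, 208 with PEN-WT, 204 with PEN-MUT and 217 with PEN. SRRM2 was sixth with PEN-FFW at 63.6, level with SRSF6 at 63.2 within counting intervals, ninth at 26.3 with PEN-WT and ninth at 16.6 with PEN-MUT. With PEN it was last at 19.5, where its interval overlapped that of SRRM1 at 19.7, as it did with PEN-MUT (SRRM1 16.6). SRSF1, SRSF5 and SRSF3 could not be ordered with PEN-FFW, where they had 122, 121 and 120, whereas with PEN they stood at 133, 111 and 128. SRSF6, SRSF4 and SRSF11 were always in that order, with 63.2, 54.8 and 40.4 with PEN-FFW and 67.7, 52.2 and 39.5 with PEN.

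The 10 genes share annotated features, and a stop-containing isoform is a known trait of many SR genes, so choice by name goes with it. All 10 have at least 1 annotated nonsense-mediated decay transcript, against 46.0% of tested genes, and 9 have a retained-intron transcript, against 59.2%. Annotated transcripts number from 6 (SRSF6) to 26 (SRRM1 and SRRM2), where the median over tested genes is 8. Genes with a like number of transcripts were not compared. SRSF7 has the most decay transcripts, 6 of 12, and SRRM2 the most retained-intron transcripts, 13 of 26. The transcripts of SRSF1, SRSF3, SRSF6, SRSF7 and SRSF11 are poor in GC (38.7% to 40%, where the median tested gene has 48.3%), and that of SRRM2 has 56.0%. SRRM2 is also the longest, at 9044 bases, longer than 93.9% of tested genes.

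GC content, length and mean count moved with the differences of PEN-FFW from PEN across all genes. The median difference was -0.08 in the bin of genes with the lowest GC content (35.7%) and 0.25 in the bin with the highest (66.2%), of 20 bins, and by length it was -0.11 among the shortest and 0.15 among the longest. By mean count it was 0.32 among the scarcest genes and -0.17 among the most abundant. Against genes with a like GC content, SRRM2 stood at 1.58 with PEN-FFW against PEN and at 0.35 with PEN-WT against PEN. With PEN-FFW 2 of the other genes in its bin of 605 lay higher, where 32 of all 12578 tested genes did. Relative to genes of the same length it stood at 1.57. SRSF7 was at -0.20 among genes of its GC content and -0.25 among genes of its length with PEN-FFW, against -0.28 relative to the median tested gene, and SRRM1 at 0.29 and 0.25. SRSF1 stood at -0.09 and SRSF3 at -0.07 among genes of their GC content.

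**Figure D4:**
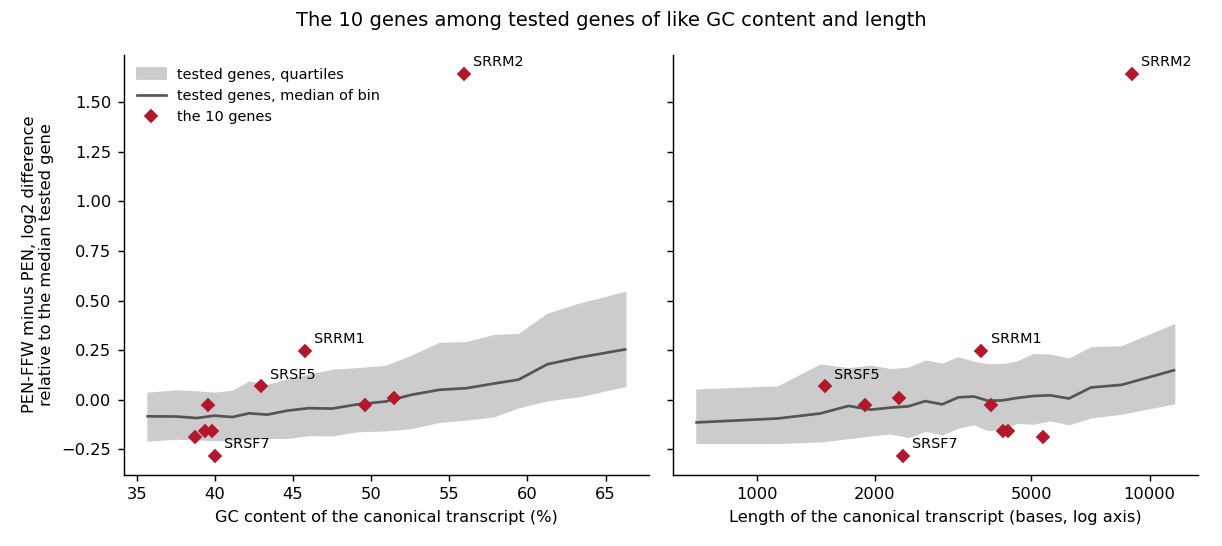
Log2 difference of PEN-FFW minus PEN, relative to the median tested gene, by GC content (%) and the length (bases, log axis) of the canonical transcript. The line and grey area are the median and quartiles of tested genes in 20 bins, and the diamonds are the 10 genes. SRRM2 lies at 1.64, far above the upper quartile of genes of its GC content and of its length, while the SRSF genes lie between -0.28 and 0.07.

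Promoters are shown for the same opposite pair. RefSeq promoters (250 bases before to 50 after the start, GRCh38.p14) matched 9 of the 10 genes, with 13 starts in all, and SRSF2 was the gene without one. Capitals mark GC boxes (GGGCGG on either strand) and TATA boxes (TATAAA on either strand), which do not overlap here. The SRRM2 promoter is chr16:2752388-2752687 on the plus strand. SRSF7 has 2 starts, and the one printed is chr2:38751312-38751611 on the minus strand.
SRRM2 promoter: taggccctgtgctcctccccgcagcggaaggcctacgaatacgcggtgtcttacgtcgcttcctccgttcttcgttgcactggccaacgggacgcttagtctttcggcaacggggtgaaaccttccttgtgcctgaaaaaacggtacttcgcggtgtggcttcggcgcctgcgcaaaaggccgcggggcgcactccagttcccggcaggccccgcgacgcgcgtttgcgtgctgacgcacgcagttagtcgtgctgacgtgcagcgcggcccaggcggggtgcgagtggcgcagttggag
SRSF7 promoter: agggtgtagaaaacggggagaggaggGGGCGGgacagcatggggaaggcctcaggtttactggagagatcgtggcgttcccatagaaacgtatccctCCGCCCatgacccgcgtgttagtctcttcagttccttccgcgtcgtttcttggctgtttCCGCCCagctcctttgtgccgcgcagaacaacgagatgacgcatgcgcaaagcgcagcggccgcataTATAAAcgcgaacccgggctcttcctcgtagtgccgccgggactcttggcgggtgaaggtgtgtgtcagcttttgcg
The SRRM2 window, of 65% GC, holds neither motif, and the SRSF7 window printed, of 59.3% GC, holds 3 GC boxes and 1 TATA box. The window of the other SRSF7 start, chr2:38751445-38751744, of 55% GC, holds 3 GC boxes and 0 TATA boxes. It overlaps the printed window, and its 3 GC boxes are the same 3. GC boxes were found in 6 of the 13 promoters, from 5 genes, and TATA boxes in 3. Of all 35116 promoters, 45.0% and 11.5% hold them. Windows of SRRM1 overlap as well, so the 13 are not separate sequences. CCAAT on either strand was found in 2 of the 13 (34.6% of all promoters), and the E-box CACGTG in 0 (7.26%).

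Reads that other genes can claim limit a few of these values. SRSF2 shares 27.7% of its annotated exon bases with MFSD11 on the opposite strand, which had 1303 normalized counts with PEN-FFW, 1626 with PEN-WT, 1560 with PEN-MUT and 1428 with PEN. SRRM2 shares 3.14% with ELOB, listed as TCEB2, which stood at -0.07 with PEN-FFW against PEN. SRSF1 shares 32.7% and SRSF6 13.4% with an unnamed gene on their own strand. The strand setting is not given in the sources used here, and pseudogene copies named in the annotation (5 for SRSF3, 2 each for SRRM1 and SRSF6, 1 each for SRSF1 and SRSF2) make those genes uncertain.

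The wider splicing machinery was described from lists. The other SR genes SRSF8, SRSF9, SRSF10 and SRSF12 had a median of -0.07 with PEN-FFW, -0.08 with PEN-WT and -0.07 with PEN-MUT against PEN, and 0 of the 4 were apart from PEN by 0.32 in any of them. Of all tested genes 17% were higher by that much and 5.67% lower with PEN-FFW. The shares were 5.93% and 3.53% with PEN-WT, and 2.26% and 3.14% with PEN-MUT, so 0 of 4 genes says little. SRSF8, an intronless relative of SRSF2, was the lowest with PEN-FFW, with 1158 normalized counts with PEN-FFW against 1721 with PEN (-0.30 ± 0.05), and SRSF12 the highest (0.13 ± 0.11).

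Among 36 tested SR-related genes the median was -0.01 with PEN-FFW, -0.05 with PEN-WT and -0.08 with PEN-MUT. At least 0.32 higher with PEN-FFW against PEN were 4 of the 36, where 17% of all tested genes were, and 0 were lower (5.67%). They included SON, the other large scaffold of nuclear speckles, at 0.41 ± 0.02 and CCNL2, a cyclin found in speckles, at 0.38 ± 0.03. SON had 8990 normalized counts with PEN-FFW, 8758 with PEN-WT, 7991 with PEN-MUT and 8166 with PEN, a far smaller spread than that of SRRM2. The other 2 of the 4, named after their values were seen, were NKTR (0.36) and SCAF1 (0.36). SCAF1 was also the 1 gene of the 36 higher by that much with PEN-WT against PEN (0.50 ± 0.04), where 5.93% of tested genes were. At the other end with PEN-FFW were PPIG, a cyclophilin with an RS domain, and TRA2B, a sequence-specific splicing activator. PPIG stood at -0.3216 ± 0.03 and TRA2B at -0.3174 ± 0.02, both just short of the unrounded cut of 0.3219. The count of 0 lower thus turns on a small margin for PPIG. With PEN-MUT against PEN 1 gene was lower by that much (3.14% of tested genes), LUC7L3, also named after its value was seen (-0.44 ± 0.03).

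SR proteins are phosphorylated by the SRPK and CLK kinases, dephosphorylated by PP1 and carried into the nucleus by TNPO3. The 13 genes of this list had medians of 0.01 with PEN-FFW, -0.02 with PEN-WT and -0.01 with PEN-MUT against PEN. SRPK3, the kinase known from muscle, was the 1 gene of the 13 past 0.32 with PEN-FFW (17% of tested genes were higher), with 155 normalized counts with PEN-FFW, 66.0 with PEN-WT, 58 with PEN-MUT and 65.5 with PEN (1.40 ± 0.18 against PEN). It is scarce next to CLK2 (0.27 ± 0.04), SRPK1 (-0.22 ± 0.03) and the phosphatase gene PPP1CC (-0.25 ± 0.02), of which PPP1CC had 10393 normalized counts with PEN-FFW and 14879 with PEN.

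The hnRNP proteins often oppose SR proteins at splice sites. Their 22 tested genes had medians of -0.18 with PEN-FFW, -0.07 with PEN-WT and -0.08 with PEN-MUT against PEN, with 4 of 22 at least 0.32 lower with PEN-FFW (5.67% of tested genes) and 0 higher (17%). HNRNPA2B1 was farthest, with 11822 normalized counts with PEN-FFW, 19604 with PEN-WT, 14804 with PEN-MUT and 20369 with PEN. Its differences from PEN were -0.51 ± 0.02 with PEN-FFW, -0.09 ± 0.01 with PEN-WT and -0.48 ± 0.02 with PEN-MUT, so PEN-WT and PEN lay together and PEN-FFW and PEN-MUT below them. HNRNPAB followed at -0.35 ± 0.02 with PEN-FFW, and HNRNPF and HNRNPH3, named after their values were seen, at -0.34 each. At the other end PTBP2 was at 0.29 ± 0.07 and HNRNPD at 0.20 ± 0.03.

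The core of the spliceosome, 34 tested genes, had medians of -0.18 with PEN-FFW, -0.09 with PEN-WT and 0.01 with PEN-MUT against PEN. With PEN-FFW 26 of the 34 lay below the median tested gene, about which all tested genes divide evenly by construction. Neither this list nor the hnRNP list was set against genes of the same mean count. In the most abundant of 20 bins of tested genes the median with PEN-FFW against PEN was -0.17, and in the scarcest 0.32. By at least 0.32, 4 of the 34 were lower with PEN-FFW (5.67% of tested genes) and 1 higher (17%). The lowest with PEN-FFW were the Sm protein genes SNRPD1 (-0.43 ± 0.03) and SNRPE (-0.36 ± 0.04), with SNRPA1 (-0.34) and SNRPF (-0.33), named after their values were seen, also past that difference. SF3A2 (0.34 ± 0.04), a subunit that helps place U2 at the branch site, was the 1 gene at least 0.32 higher, and DHX38 came next (0.12 ± 0.03).

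Genes of nonsense-mediated decay, the route that removes the stop-containing isoforms of SR genes, had a median of 0.08 with PEN-FFW, 0.07 with PEN-WT and -0.01 with PEN-MUT against PEN over 10 genes. SMG6 (0.41 ± 0.06) and the kinase gene SMG1 (0.41 ± 0.02) were at least 0.32 higher with PEN-FFW (17% of tested genes), and SMG6 also with PEN-WT (0.34 ± 0.06, with 5.93% of tested genes). SMG8 (-0.16 ± 0.04) and UPF3A (-0.11 ± 0.06) were lowest with PEN-FFW. The 9 tested export genes had medians of -0.04, -0.03 and 0.01 with PEN-FFW, PEN-WT and PEN-MUT, from NXT1 (-0.31 ± 0.06) and THOC5 (-0.25 ± 0.04) to ZC3H11A (0.08 ± 0.03) and NXF1 (0.09 ± 0.04), the main mRNA export receptor, with PEN-FFW.

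The 3 RNAs listed as retained in the nucleus were each at least 0.32 higher with PEN-FFW against PEN, where 17% of all tested genes were. They were listed with earlier results of these data known, so nothing is read from that count. MALAT1, which resides in nuclear speckles, had 60477 normalized counts with PEN-FFW, 48373 with PEN-WT, 38131 with PEN-MUT and 47717 with PEN. Its difference from PEN was 0.61 ± 0.01 with PEN-FFW, that of NEAT1, the scaffold of paraspeckles, 1.08 ± 0.05, and that of KCNQ1OT1, the imprinted antisense transcript of KCNQ1, 1.66 ± 0.04. With PEN-WT the same 3 RNAs lay at -0.01, 0.02 and 0.17 from PEN, and with PEN-MUT at -0.34, -0.31 and -0.28. The part of these RNAs, of GC content and of transcript length in the SRRM2 difference was not tested.

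**Figure D5:**
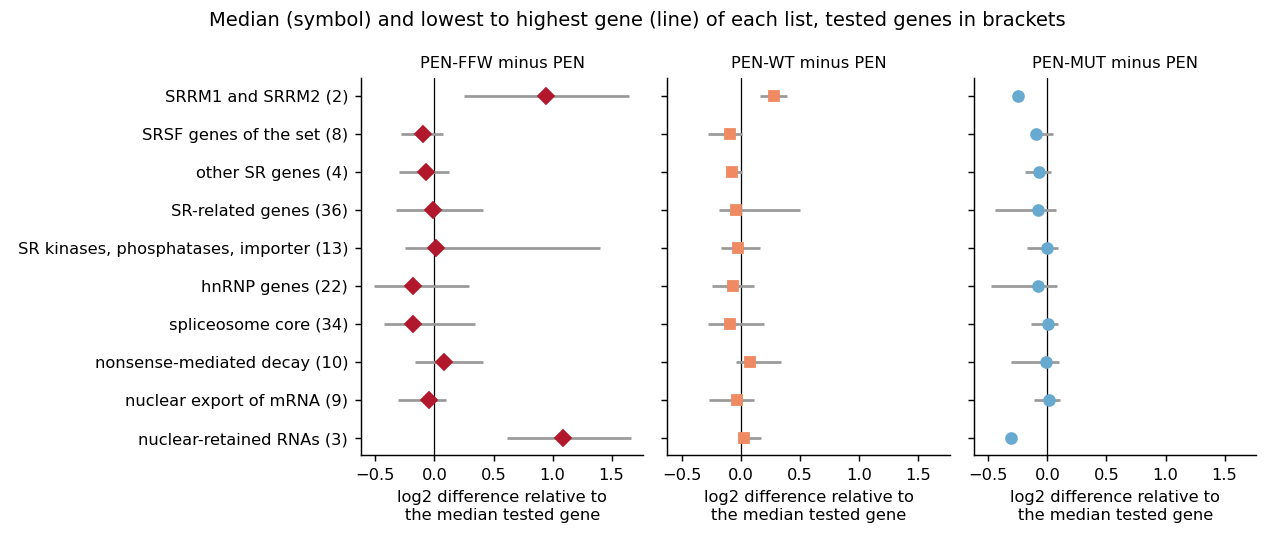
Median log2 difference from PEN (symbols) and the lowest to the highest gene (lines), relative to the median tested gene, for SRRM1 and SRRM2, the 8 SRSF genes and 8 other lists, with the number of tested genes in brackets. With PEN-FFW the nuclear-retained RNAs lie at 1.08 and the 8 SRSF genes at -0.09.

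By distance between profiles over the 4 libraries, the genes most like SRRM2 among 8697 candidates were MLL2, KCNQ1OT1, POLR2A, SRCAP and MYO15B. Candidates had a mean of at least 500 normalized counts. The genes described here, names starting LOC, LINC, MIR or SNOR and names holding a clone number were left out. MLL2, a histone H3 methyltransferase gene, was nearest (Euclidean distance 0.05 in log2 units), with 8994 normalized counts with PEN-FFW, 4606 with PEN-WT, 3077 with PEN-MUT and 3559 with PEN. KCNQ1OT1 lay at a distance of 0.19, the polymerase II subunit gene POLR2A at 0.27, the chromatin remodeller gene SRCAP at 0.28 and MYO15B at 0.31. POLR2A had 4950 normalized counts with PEN-FFW, 2621 with PEN-WT, 2089 with PEN-MUT and 2082 with PEN. The median profile of the 8 SRSF genes was nearly flat, between -0.05 and 0.05, and its 5 nearest genes (PAR5, XIAP, TBC1D15, C9orf91 and TNKS2) lay within 0.02 of it.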

How the data were processed

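RNA was sequenced from 1 library per peptide. The submitters' processing notes name STAR 2.4.0i, featureCounts 1.5.0-p1 and the build hg19. The annotation, strand setting and normalization were not given in the sources used here. The authors deposited log2 values per gene. Raised to the power of 2, 100% of values above the lowest (2.32, the log2 of 5) came out as whole reads, within 0.1 read, when divided by 1 step for each library, so the values are reads times a factor per library (0.923 for PEN-FFW, 0.776 for PEN-WT, 1 for PEN-MUT and 0.840 for PEN). A gene at the floor may have a few reads or none. Tested genes average 50 normalized counts or more, a pseudocount of 10 was added before the log2, which understates the fold of low genes, and the median tested gene of each of the 6 pairs was subtracted. Counting errors are Poisson errors on the log2 scale. With 1 library per group no test was made and a log2 difference of 0.32 stands in for a call. Differences were checked on simulated reads. Names and coordinates are from GENCODE 44 on GRCh37, where 20574 genes matched by symbol and 1560 by a RefSeq synonym, and 12098 tested genes have a GC value. Promoters are from RefSeq. All members are named. Of each other list the 2 highest and 2 lowest genes in PEN-FFW against PEN are named, and those chosen after their values were seen are marked. Likeness was ranked by Euclidean distance over 4 centred log2 values. The members and lists were chosen with earlier results of these data known. Python 3.11.15, numpy 2.4.6, pandas 2.3.3 and scipy 1.17.1 were used. The closing section gives alternative pseudocounts, filters, scalings and folds.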

Additional observations from a re-analysis of the deposited data

How the results depend on the processing

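No paired analysis was possible because each peptide has 1 library, and no library could be left out. SRRM2 stayed higher in PEN-FFW under every scaling, filter and pseudocount tried, between 1.37 and 1.81 from PEN, 1.59 and 2.05 from PEN-MUT and 0.95 and 1.34 from PEN-WT, and SRSF7 stayed below PEN in PEN-FFW (-0.55 to -0.18). As deposited, with no centring, 4 genes were lower in PEN-FFW against PEN, 4 against PEN-MUT and 2 against PEN-WT, where the main count is 0, and 1 gene was higher against PEN-MUT in place of 2. Without the filter on low values these counts were 4, 4, 1 and 1, since genes at the floor in both libraries hold the median at or near 0. At 1.5-fold 0 genes were higher in PEN-WT against PEN, and 1 against PEN-MUT in PEN-FFW and 1 in PEN-WT. The median of the 10 genes in PEN-FFW against PEN ran from -0.30 as deposited to 0.07 among genes of the same mean count, so its direction is not fixed. Depth is not the limit for SRRM2, with at least 4822 reads in each library, but the spread between cultures is unknown.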

Other observations

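Chosen after the data were seen, 64 tested genes with transcripts of at least 8000 bases and a GC content between 54% and 58%, SRRM2 among them, had a median difference from PEN of 0.39 with PEN-FFW, 0.10 with PEN-WT and -0.08 with PEN-MUT. None of the other 63 was higher than SRRM2 with PEN-FFW, where only 32 of all 12578 tested genes were. With so few genes above SRRM2, that count was nearly fixed beforehand. Of the 63, 4 were higher with PEN-WT and 54 with PEN-MUT, where 426 and 11717 of all tested genes were.

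The neighbours of SRRM2 were looked up after the data were seen. Within 100000 bases of SRRM2 on chromosome 16, 3 other genes were tested. Each lay lower than SRRM2 with PEN-FFW against PEN, as did 12545 of all 12578 tested genes. KCTD5 stood at -0.13 with PEN-FFW against PEN, TCEB2, which ends inside the SRRM2 locus, at -0.07, and ERVK13-1, a transcript of an endogenous retrovirus, at 0.61. ERVK13-1 lay at -0.03 with PEN-WT and -0.16 with PEN-MUT. The antisense gene SRRM2-AS1 had a mean of 33.9 normalized counts, under the filter.

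2 genes of the lists that most cells use were close to the floor. The RNA helicase gene DDX39B had 16.6 normalized counts with PEN-FFW, 21.0 with PEN-WT, 17 with PEN-MUT and 19.3 with PEN, and HNRNPH2 between 5.00 and 6.21. The table lists a readthrough gene across each of these loci, ATP6V1G2-DDX39B and RPL36A-HNRNPH2, at the floor in all 4 libraries. Whether reads shared with an overlapping gene were dropped was not tested.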
